A study of Mus musculus with 10 samples.

Results

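The nuclear receptor genes were followed in organoids grown from mouse duodenum. They were 43 gene symbols from a list of receptor names, all 43 of which were found among the 24016 symbols of the gene table. Nascent transcription had been followed by GRO-seq (global run-on sequencing), in which polymerases already engaged on DNA extend a labelled RNA in isolated nuclei, and H3K27me3, the histone mark laid down by Polycomb repressive complex 2 (PRC2), had been mapped by ChIP-seq. ENRI medium, labelled for enterocytes, held EGF, Noggin, R-spondin and IWP-2, an inhibitor of Wnt secretion, and lacked Wnt3A and CHIR-99021. WENRC medium, labelled for intestinal stem cells, held CHIR-99021, which activates Wnt signalling, together with R-spondin, Noggin, EGF and Wnt3A. Organoids of both media were embedded in Matrigel and no further allele or agent is named in the labels. There were 2 GRO-seq libraries in ENRI and 2 in WENRC, whose titles number the mice 1 and 2 in each medium, and 1 H3K27me3 library in each. The columns of the gene table carry a batch but no mouse, so libraries are named here by medium and batch. The strain, sex and age of the mice are not given in the sources used here.

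Nuclear receptors are transcription factors that bind DNA through a zinc finger domain and, in most cases, change activity when a small lipophilic molecule occupies their ligand pocket. Several of them, among them the PPAR, LXR, FXR, PXR and CAR proteins, work as pairs with a retinoid X receptor (RXR), and in the intestine they regulate genes for handling dietary fat, bile acids, sterols and foreign compounds. Steroid receptors pair with themselves, and the orphan receptors have no settled natural ligand or act without one.

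Reads recovered over all transcripts were 29128101 and 15787828 in ENRI batches 1 and 2, against 25839484 and 9245915 in WENRC batches 1 and 2. Of these the receptor genes held 68809 and 53708 reads in ENRI, against 52403 and 18444 in WENRC, counted over 1 transcript per gene. The labelled cell types were checked against markers. The summed level of 10 enterocyte markers was 586 and 822 RPKM in ENRI, against 44.8 and 18.9 RPKM in WENRC, and that of 8 stem cell markers was 11.2 and 5.15 RPKM in ENRI, against 31.2 and 43.8 RPKM in WENRC. Among markers of cells outside the epithelium, 9 mesenchymal markers summed to 1.08 and 1.14 RPKM in ENRI, against 1.71 and 1.14 RPKM in WENRC, and 6 endothelial markers stayed under 0.2 RPKM in every library. The immune sum was 9.68 and 6.59 RPKM in ENRI, against 16.8 and 19.2 RPKM in WENRC, and came mainly from Cd68 and Cd14, while the T cell gene Cd3e was at 0 in both ENRI libraries. Enterocyte and stem cell markers thus moved with the medium and with every receptor difference given below, and their part in those differences was not tested. In such bulk samples, fewer cells of a type and less RNA per cell cannot be told apart.

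Transcription divided the family. A gene was counted as transcribed at 0.5 RPKM (reads per kb of transcript, scaled to library size) or more in at least 2 libraries, as silent below 0.1 RPKM in all 4, and as weakly transcribed in between. By this measure 27 of the 43 receptor genes (62.8%) were transcribed, 4 were weakly transcribed and 12 were silent. Of all 24016 symbols, 48.3% were transcribed, 18.4% weakly transcribed and 33.3% silent. All 8 receptors for lipids, bile acids and foreign compounds were transcribed. The steroid receptors differed among themselves, since Nr3c1 and Nr3c2, which encode the glucocorticoid and mineralocorticoid receptors, were transcribed, while Esr1 and Esr2, the estrogen receptors, and Pgr, the progesterone receptor, were silent. Close relatives also fell into different classes: Nr2f2 and Nr2f6 were transcribed and Nr2f1 silent, Nr4a1 and Nr4a2 transcribed and Nr4a3 silent, Nr5a2 transcribed and Nr5a1 silent, and Rxra and Rxrb transcribed and Rxrg silent.

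**Figure D1:**
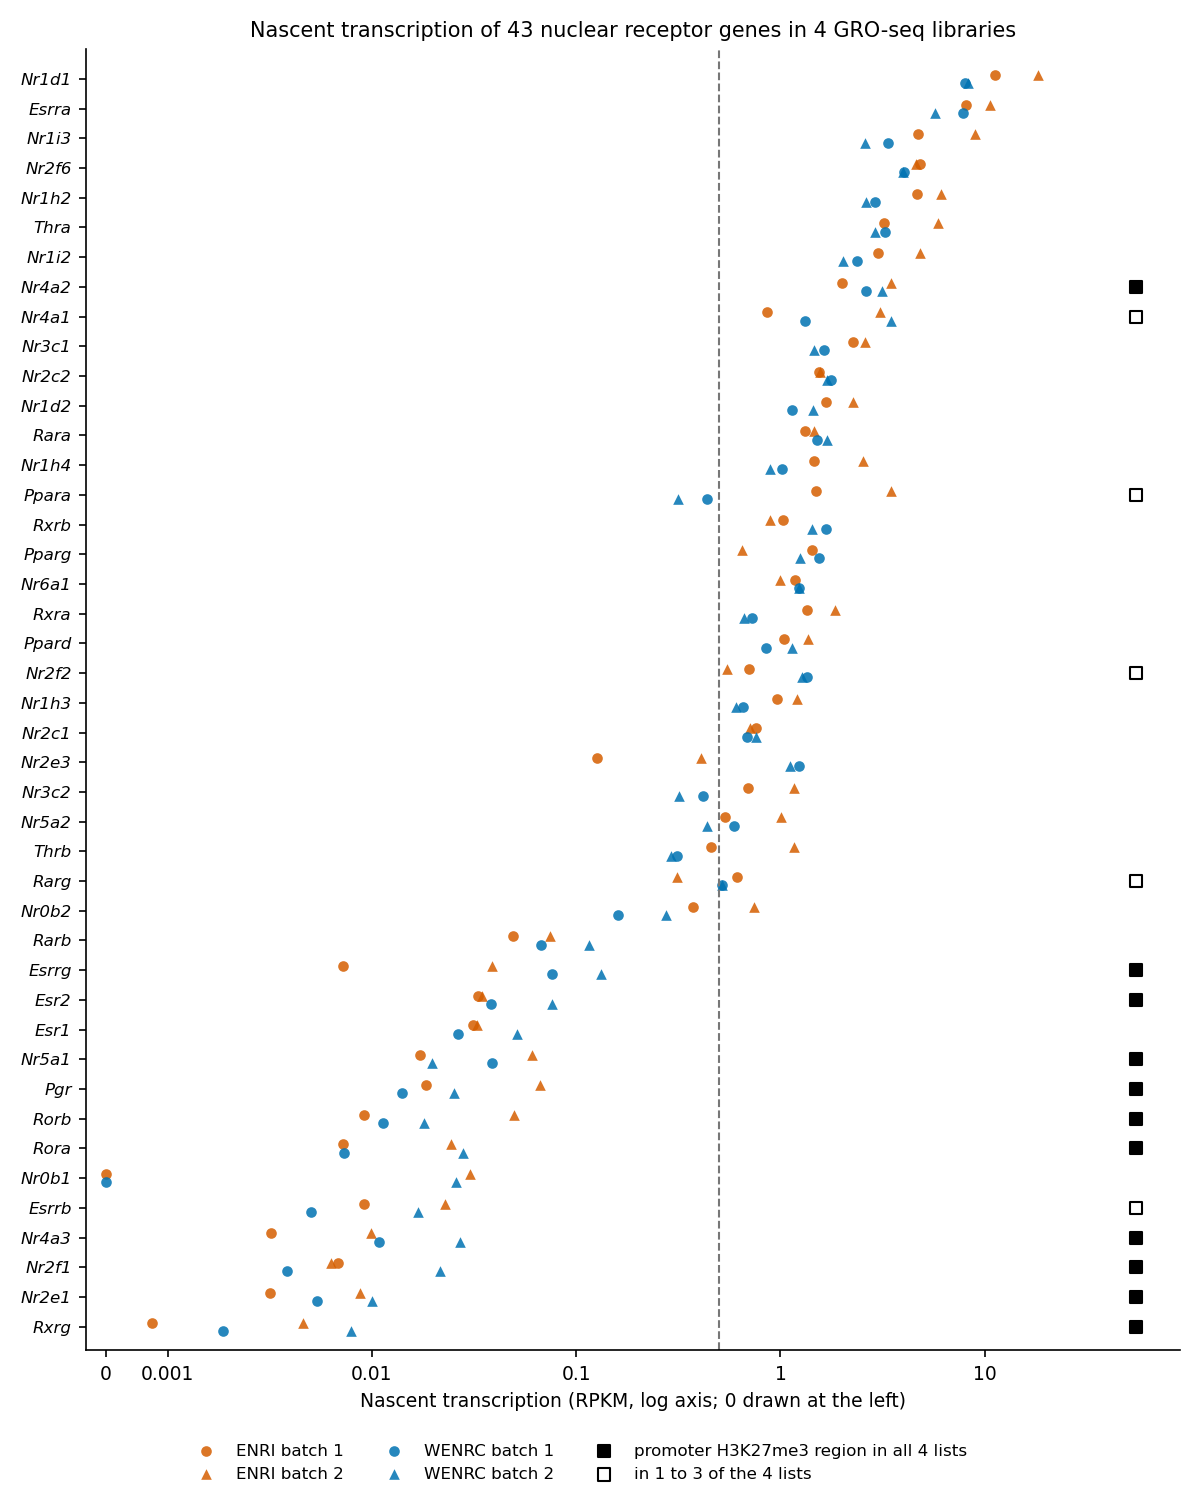
Nascent transcription of each of the 43 receptor genes (RPKM, log axis, 0 drawn at the left), ordered by the mean of the 4 libraries, with ENRI libraries in orange and WENRC libraries in blue, and with squares at the right where the promoter overlapped an H3K27me3 region. The dashed line is 0.5 RPKM. Filled squares, for a region in all 4 lists, stand beside 9 of the 12 silent genes and beside 1 of the 27 transcribed genes.

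The silent members stayed between 0 and 0.0761 RPKM in every library. Nr2f1, which guides the development of neurons, had 3 reads over both ENRI libraries and 3 over both WENRC libraries, and Rxrg had 4 and 5. Nr0b1, a regulator of steroid-producing tissues, had 2 reads in ENRI and 1 in WENRC. At these counts no difference between media could be detected. Longer silent genes collected more reads at the same low level, with 557 in ENRI and 455 in WENRC for Esr1. In 11 of the 12 silent genes the level was higher in batch 2 than in batch 1 within ENRI, and likewise in 11 of 12 within WENRC. The same order held for 70.6% of all silent genes with reads within ENRI and for 81.2% within WENRC. Among the 27 transcribed members it held for 20 within ENRI and 8 within WENRC. Low levels thus differed between batches. Batch 2 also had fewer reads than batch 1 in each medium, so batch and depth cannot be told apart here.

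H3K27me3 lay over most silent members and few of the transcribed ones. The authors called 2 kinds of region in each medium, broad regions joined over long gaps and narrow regions of short windows, and a promoter was counted as marked when a region came within 2 kb of the start of the longest transcript. The broad lists held 11 of the 43 promoters in ENRI (8.76% of all symbols) and 13 in WENRC (10.5%), with 11 in both (6.10%). The narrow lists held 14 in ENRI (19.6% of all symbols) and 15 in WENRC (17.8%). In all 4 lists, 11 of the 43 promoters (25.6%) were marked, against 5.87% of all symbols. By class these were 9 of the 12 silent members (75.0%, against 10.6% of all silent genes), 1 of the 4 weakly transcribed members (25%, against 8.50%) and 1 of the 27 transcribed members (3.70%, against 1.58%). The 9 silent members were Esr2, Pgr, Rora, Rorb, Rxrg, Nr2e1, Nr2f1, Nr4a3 and Nr5a1, the weakly transcribed one was Esrrg, and the transcribed one was Nr4a2. No region in any list reached the promoters of 27 members (62.8%), against 76.5% of all symbols. With 1 ChIP library per medium, differences between the lists have no replicate check.

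**Figure D2:**
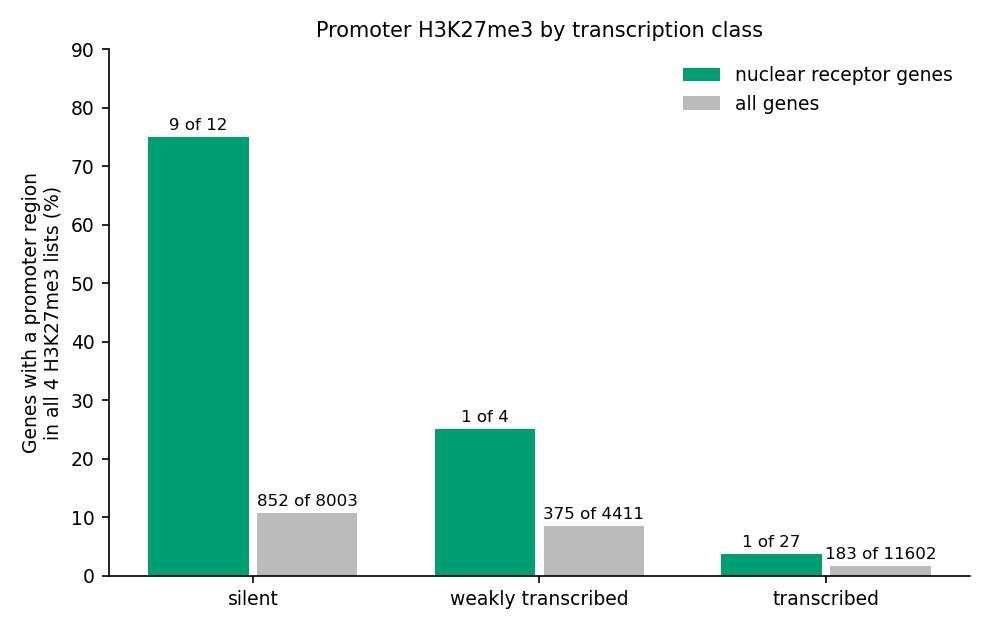
Share of genes (%) whose promoter, 2 kb either side of the start, overlapped an H3K27me3 region in all 4 lists, by transcription class, for the receptor genes (green) and for all genes (grey), with the counts above the bars. The receptor genes reached 75.0% among silent members, against 10.6% of all silent genes.

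Of the 3 silent members outside that set, Esrrb, an estrogen-related receptor known from embryonic stem cells, was marked in both WENRC lists and in neither ENRI list at the start of its longest transcript, and in all 4 lists at another annotated start 60.5 kb further downstream. Esr1 had no region near its start. Its nearest broad regions lay 98.4 kb downstream in ENRI and 97.0 kb downstream in WENRC, within the gene, and its nearest narrow regions were upstream at 27.4 kb in ENRI and 32.8 kb in WENRC. Nr0b1, on the X chromosome, was farthest from the mark, with the nearest broad region 7085 kb away in ENRI and 7087 kb away in WENRC. These 3 silent genes lacked a promoter region in at least 1 medium.

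The marked domains differed widely in length. The broad region over Nr2f1 spanned 50.4 kb in ENRI, against 44.0 kb in WENRC, and that over Nr2e1, a regulator of neural progenitors, spanned 38.3 kb in ENRI, against 33.0 kb in WENRC. The region over Nr5a1, the steroidogenic factor of adrenal gland and gonads, spanned 29.9 kb in ENRI, against 14.5 kb in WENRC, beginning 0.267 kb upstream of the start in ENRI and 0.517 kb downstream of it in WENRC. Nr4a3, an immediate early gene, had 13.6 kb in ENRI, against 12.9 kb in WENRC. These 4 regions all passed 10 kb in both media, while the median broad region was 1.26 kb in ENRI and 1.60 kb in WENRC. The other 7 marked members had shorter regions, between 1.00 kb and 3.86 kb in ENRI and between 1.00 kb and 6.11 kb in WENRC. Of the 11 members marked in all lists, 6 had the longer broad region in ENRI and 5 in WENRC, and 7 had more tags per kb in WENRC. The fold over input that the authors gave for these broad regions, a value of the peak itself, lay between 4.04 and 8.34. The calling required a fold of 4, and the lowest value, just above it, was that of Nr4a2 in ENRI, for a region of 1.00 kb.

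**Figure D3:**
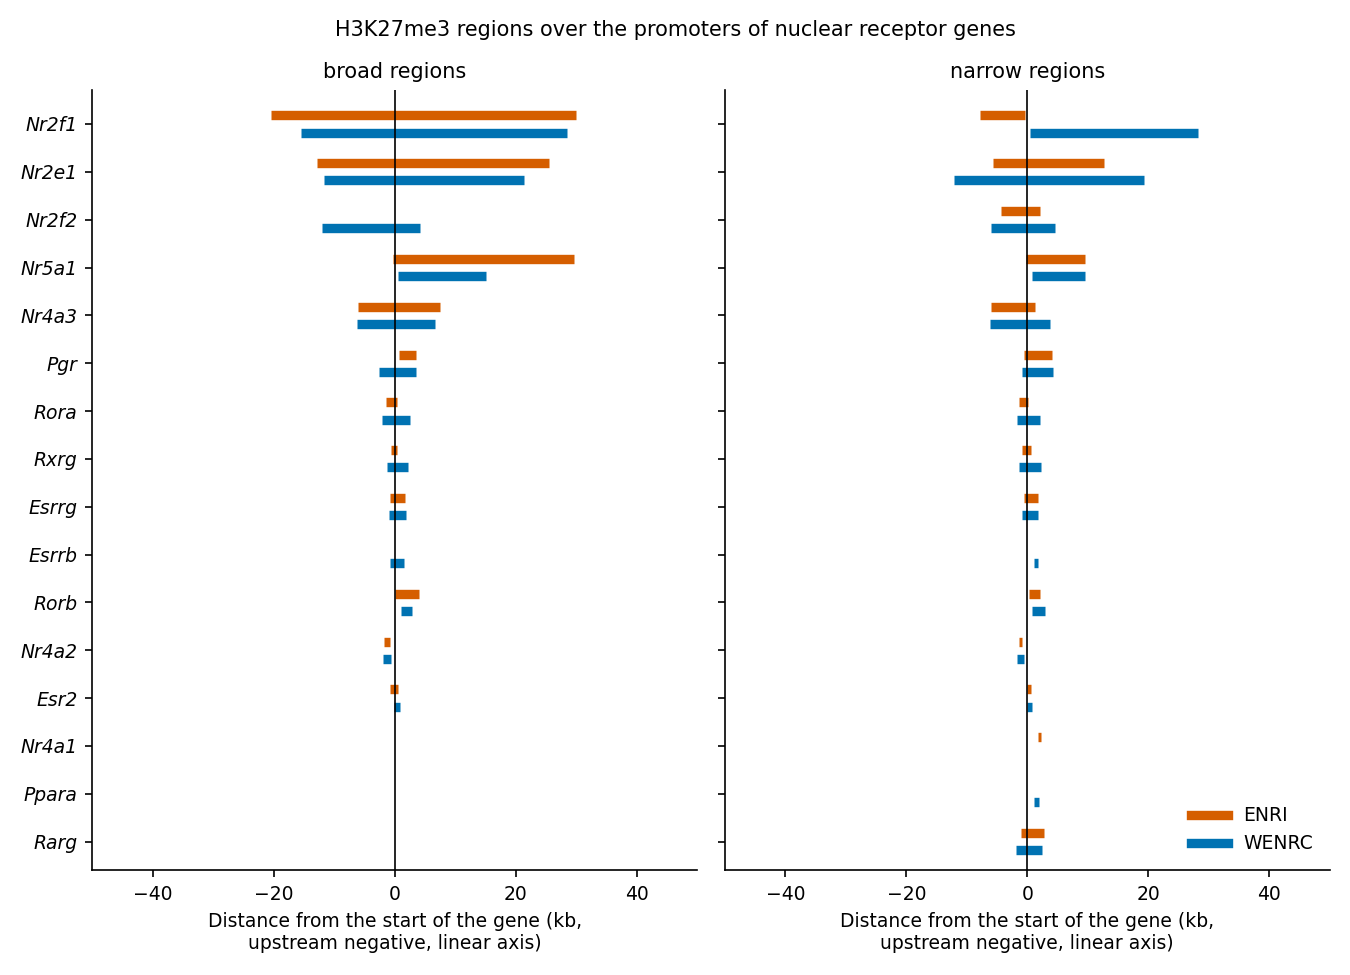
Position of the H3K27me3 region with the most overlap with each promoter, in kb from the start of the longest transcript (0, upstream negative, linear axis), for broad lists at the left and narrow lists at the right, with ENRI in orange above WENRC in blue. Regions over Nr2f1, Nr2e1, Nr5a1 and Nr4a3 extend beyond 10 kb in both broad lists, and Nr2f2 has a broad region in WENRC and none in ENRI.

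Among the transcribed members that carried the mark, only Nr4a2 had it in all 4 lists. Of the 27 transcribed members 22 (81.5%) had no region in any list, against 91.1% of all transcribed genes. The narrow lists marked 14.8% of transcribed members in each medium, against 6.45% of all transcribed genes in ENRI and 6.19% in WENRC. Nr4a2, the relative of Nr4a1 known as NURR1, was marked in all 4 lists, yet its regions lay wholly upstream, from 1.75 to 0.746 kb before the start in the broad ENRI list and from 1.90 to 0.630 kb before it in the broad WENRC list. Its other annotated start, 8.96 kb downstream, was not marked in any list. Regions beside the start were also seen in silent members. Those of Rorb lay wholly downstream, from 0.116 to 3.97 kb after the start in the broad ENRI list. In the broad WENRC list they lay from 0.965 to 2.81 kb after it. Nr2f2, also called COUP-TFII, had a broad region of 16.2 kb in WENRC and none in ENRI, and narrow regions of 6.37 kb in ENRI and 10.5 kb in WENRC. Rarg, a retinoic acid receptor, was marked in both narrow lists and in neither broad one, by regions of 3.73 kb in ENRI and 4.19 kb in WENRC. Ppara carried a narrow region of 0.796 kb in WENRC, from 1.19 to 1.99 kb downstream of its start, and none in ENRI or in either broad list. Nr4a1 carried a narrow region of 0.5 kb in ENRI only among the 4 lists, which began 1.80 kb downstream of its start.

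Promoter sequences are shown for the most transcribed member (Nr1d1), for the transcribed member with the largest difference between media (Ppara) and for the members with the longest broad regions whose start could be placed (Nr2f1, Nr2e1, Nr2f2 and Pgr). Each is the 250 bases before the start in RefSeq, on build GRCm38.p6, written along the gene, with CpG dinucleotides in capitals. The H3K27me3 regions are on build mm9, so that the 2 sets of coordinates are not to be compared.
Nr1d1 (chr11:98775378-98775627, minus strand): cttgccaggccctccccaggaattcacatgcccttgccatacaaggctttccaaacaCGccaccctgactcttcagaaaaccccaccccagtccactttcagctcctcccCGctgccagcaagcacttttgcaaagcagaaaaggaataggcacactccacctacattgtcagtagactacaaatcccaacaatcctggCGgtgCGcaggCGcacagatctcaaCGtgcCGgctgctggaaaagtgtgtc
Ppara (chr15:85735526-85735775, plus strand): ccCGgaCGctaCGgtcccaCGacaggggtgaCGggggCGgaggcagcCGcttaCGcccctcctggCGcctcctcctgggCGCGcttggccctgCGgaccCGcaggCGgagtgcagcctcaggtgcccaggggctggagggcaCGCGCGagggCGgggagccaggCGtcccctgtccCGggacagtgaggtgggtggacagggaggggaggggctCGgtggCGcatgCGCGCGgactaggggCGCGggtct
Nr2f1 (chr13:78198874-78199123, minus strand): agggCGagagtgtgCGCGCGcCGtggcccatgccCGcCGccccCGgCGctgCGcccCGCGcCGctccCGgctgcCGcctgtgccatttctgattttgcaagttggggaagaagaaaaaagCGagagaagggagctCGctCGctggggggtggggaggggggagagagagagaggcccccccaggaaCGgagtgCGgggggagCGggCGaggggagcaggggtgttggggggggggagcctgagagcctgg
Nr2e1 (chr10:42583591-42583840, minus strand): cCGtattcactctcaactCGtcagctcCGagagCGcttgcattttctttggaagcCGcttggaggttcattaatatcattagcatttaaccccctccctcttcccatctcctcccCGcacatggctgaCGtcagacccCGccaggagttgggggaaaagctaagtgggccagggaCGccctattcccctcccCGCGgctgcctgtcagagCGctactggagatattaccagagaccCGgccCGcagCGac
Nr2f2 (chr7:70366747-70366996, minus strand): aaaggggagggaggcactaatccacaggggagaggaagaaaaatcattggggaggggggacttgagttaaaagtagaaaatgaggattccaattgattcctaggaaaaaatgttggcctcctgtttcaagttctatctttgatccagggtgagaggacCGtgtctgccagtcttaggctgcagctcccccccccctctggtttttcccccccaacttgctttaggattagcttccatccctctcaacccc
Pgr (chr9:8899583-8899832, plus strand): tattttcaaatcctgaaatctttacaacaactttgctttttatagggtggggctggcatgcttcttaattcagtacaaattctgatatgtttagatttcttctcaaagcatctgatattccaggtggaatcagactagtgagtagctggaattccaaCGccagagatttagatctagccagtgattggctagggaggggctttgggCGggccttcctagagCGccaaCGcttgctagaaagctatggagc

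Ppara had 27 CpG dinucleotides in these 250 bases and Nr1d1 had 7. Among the promoters shown with a broad H3K27me3 region over 10 kb in at least 1 medium, Nr2f1 had 22, Nr2e1 had 15 and Nr2f2 had 1. Pgr, with a shorter region, had 4. RefSeq held a promoter for 40 of the 43 members, and 36 of these matched the span of the longest transcript within 2 kb. The spans differed most for Esr1 (1929 bases), Nr3c2 (1551), Nr5a2 (1022) and Nr2c2 (1015). Their promoter bases may thus lie away from the start used for H3K27me3. Over 300 bases, from 250 before the start to 50 after it, the 7 silent members with a region in all 4 lists had a median of 19 CpG (range 6 to 28), the same as the median of 19 over all 511 such genes. The 19 transcribed members with no region had a median of 20 (range 2 to 55), against 21 over 7058 genes. The silent members with no region were Esr1 with 6 and Nr0b1 with 14 CpG, while the median of all 3098 such genes was 2. The half-site AGGTCA, the element that most of these receptors recognise, occurred on either strand in 5 of the 36 promoters (13.9%), those of Nr0b1, Nr1d2, Nr5a2, Pparg and Rarg, against 14.1% of 15550 promoters. The E-box CACGTG, bound by clock factors, occurred in 4 of the 36 (11.1%), those of Esr2, Nr0b2, Nr1i3 and Rara, against 8.18% of all.

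**Figure D4:**
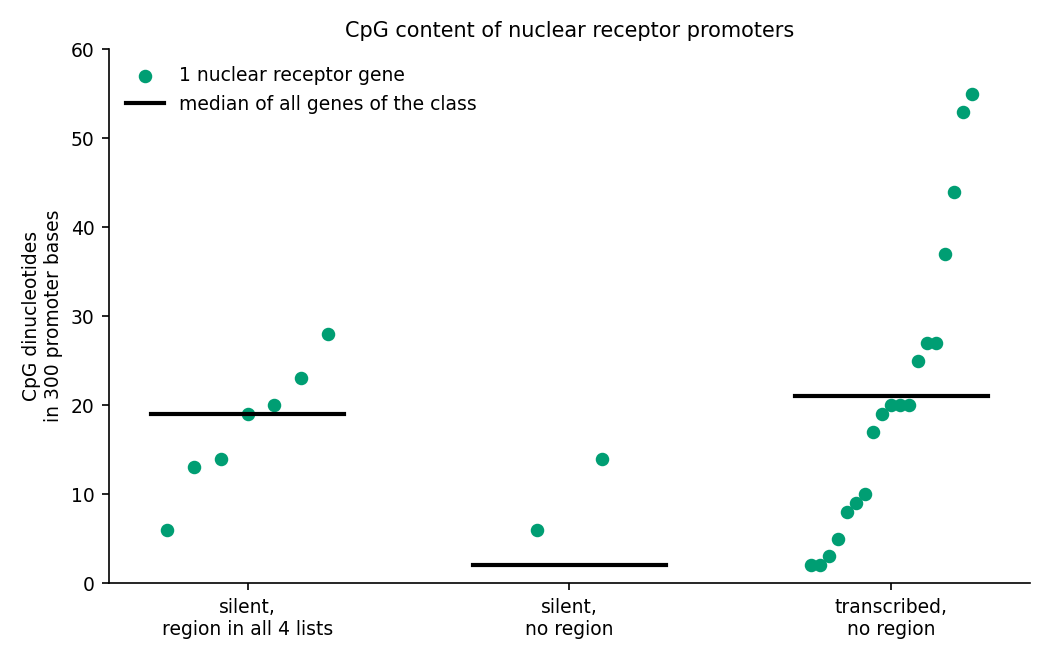
CpG dinucleotides in 300 promoter bases of receptor genes (points) by transcription and H3K27me3, with the median of all genes of the same class as a black line. Silent members under a region in all 4 lists centre on 19 CpG, and transcribed members with no region spread from 2 to 55.

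Between media the transcribed members leaned towards ENRI, and none passed the test across all genes. Limma, applied to log2(RPKM + 0.5), called 0 of 27 tested members at a Benjamini-Hochberg adjusted p of 0.05, against 0.147% of all 11602 tested genes (17). The fitted changes understate those of low genes, because of the pseudocount of 0.5 RPKM. The p-values measure the spread between these libraries, and with 2 per medium they rest on few degrees of freedom. At an unadjusted p under 0.05 there were 11 members, against 39.0% of all tested genes, of which 8 were higher in ENRI, against 12.0%, and 3 lower, against 26.9%. The median log2 change of the 27 members was 0.30, with 17 above 0 and 10 below, while the median of all tested genes was −0.21. It was 0.13 within batch 1 and 0.51 within batch 2, against −0.16 and −0.24 for all tested genes. Both ENRI libraries lay above both WENRC libraries in 13 of the 27 members, against 23.0% of all tested genes. They lay below both in 6, against 49.7%. Ppara and Nr3c2, among the 13, reached 0.5 RPKM in ENRI libraries only, and Nr2e3, among the 6, in WENRC libraries only. The filter thus kept these members through the medium where they were high, and all tested genes passed the same filter. The number of calls turned on the libraries kept. Limma called 17 members without the ENRI library of batch 1, against 49.9% of all tested genes, 2 without that of batch 2 (Ppara and Nr2e3), against 5.90%, and 0 without either WENRC library, against 0.00%. Each of these fits leaves 1 library in a medium and takes its spread from the other medium. After quantile normalization limma called Ppara and Rxra, against 8.01% of all tested genes, and with a filter of 10 reads in 2 libraries Ppara and Nr2e3, against 8.89%. With TMM scaling, which brought the median of all tested genes to −0.01, 22 members were above 0 and 5 below. Count tests on the recovered reads called more. EdgeR's quasi-likelihood test called Ppara and Rxra higher in ENRI and 0 members lower, with or without the replicate block. Of all genes it called 5.59% higher and 2.83% lower without the block, and 5.20% higher and 2.57% lower with it. DESeq2 called 11 members higher and 2 lower, against 14.7% and 8.88% of all genes. Of the 27 tested members, the authors' deposited table had 4 higher in ENRI at an FDR under 0.05 and 1 lower, against 8.16% and 4.57% of tested genes.

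**Figure D5:**
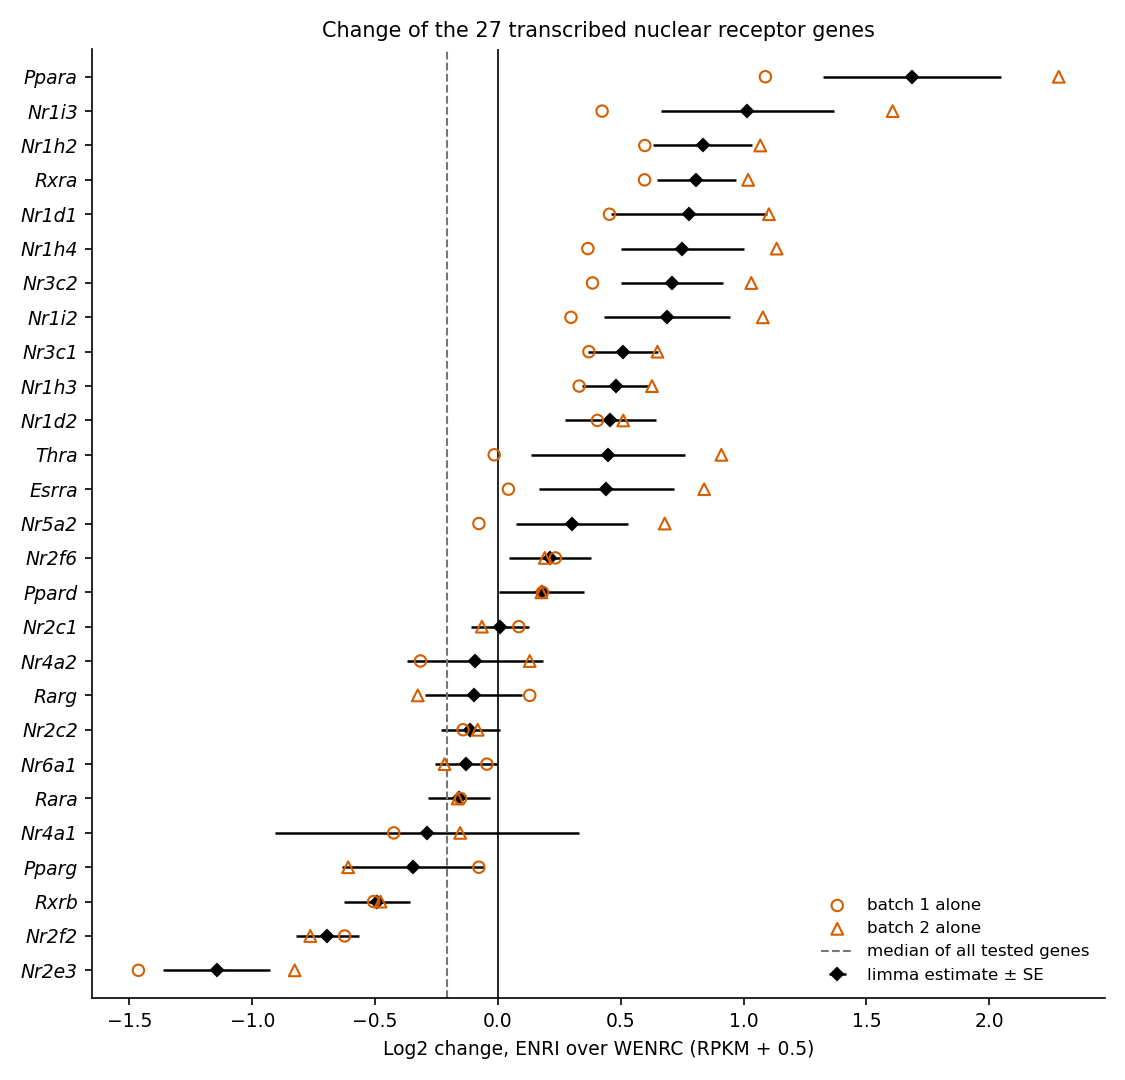
Log2 change of nascent transcription, ENRI over WENRC, on log2(RPKM + 0.5), for the 27 transcribed receptor genes, with limma's estimate and its SE (black) and the value within each batch (orange circles and triangles). The dashed line is the median of all tested genes, −0.21. Ppara lies highest at 1.69 and Nr2e3 lowest at −1.15, and batch 2 lies above batch 1 in most of the upper part of the plot.

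The receptors for fatty acids had unlike values. Ppara, which drives genes of fatty acid oxidation, had 1.49 and 3.47 RPKM in ENRI batches 1 and 2, against 0.435 and 0.316 RPKM in WENRC. Both ENRI libraries were above both WENRC libraries, by a ratio of 3.42 in batch 1 and 11.0 in batch 2. The limma log2 change was 1.69 ± 0.36 (SE, adjusted p = 0.0623), and the authors' deposited table gave a log2 change of 2.85 with an FDR of 2.50e-06. Limma called Ppara with either ENRI library left out and with neither WENRC library left out. Ppard, the widely expressed relative, had 1.03 and 1.36 RPKM in ENRI, against 0.854 and 1.14 RPKM in WENRC, and Pparg, known from fat cells and colon, had 1.43 and 0.646 RPKM in ENRI, against 1.54 and 1.25 RPKM in WENRC. For both the media overlapped. Ppard overlaps 1810013A23Rik on the same strand, which had 1.16 and 1.18 RPKM in ENRI, against 2.47 and 2.82 RPKM in WENRC. Reads of the stretch that the genes share cannot be told apart.

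The sterol and bile acid receptors were all higher in ENRI libraries without passing the test. Nr1h2 (LXR beta), a sensor of oxidised cholesterol, had 4.63 and 6.07 RPKM in ENRI, against 2.89 and 2.64 RPKM in WENRC, a log2 change of 0.83 ± 0.20 (limma, SE, adjusted p = 0.0692). Nr1h3 (LXR alpha) lay lower in both media, with 0.957 and 1.21 RPKM in ENRI, against 0.658 and 0.607 RPKM in WENRC (log2 change 0.48 ± 0.14). Nr1h4 (FXR), the bile acid receptor, had 1.45 and 2.55 RPKM in ENRI, against 1.01 and 0.888 RPKM in WENRC, a log2 change of 0.75 ± 0.25 (limma, adjusted p = 0.107), and the authors' deposited table gave it 1.26 with an FDR of 0.0413. In each of these genes the libraries of the media did not overlap.

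The receptors for foreign compounds had the same order of libraries. Nr1i2 (PXR), which induces drug-metabolising enzymes, had 3.02 and 4.84 RPKM in ENRI, against 2.36 and 2.03 RPKM in WENRC (log2 change 0.69 ± 0.26). Nr1i3 (CAR), its close relative, had 4.70 and 8.93 RPKM in ENRI, against 3.37 and 2.60 RPKM in WENRC, a log2 change of 1.02 ± 0.35 (limma, adjusted p = 0.115). Nr1i3 overlaps Tomm40l on the opposite strand, which had 7.06 and 15.5 RPKM in ENRI, against 3.06 and 2.11 RPKM in WENRC. As the strand setting of the counting is not stated, reads of these overlapping genes cannot be told apart.

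Among the retinoid receptors the RXR partners went opposite ways. Rxra had 1.35 and 1.85 RPKM in ENRI, against 0.725 and 0.659 RPKM in WENRC, a log2 change of 0.81 ± 0.16 (limma, adjusted p = 0.0594), and the authors' deposited table gave 1.44 with an FDR of 0.00817. Rxrb had 1.03 and 0.884 RPKM in ENRI, against 1.67 and 1.43 RPKM in WENRC, a log2 change of −0.49 ± 0.13 (adjusted p = 0.0808). Neither gene's libraries overlapped between media, and a test of the difference between the 2 changes was not made. Rara, a retinoic acid receptor, had 1.32 and 1.45 RPKM in ENRI, against 1.52 and 1.69 RPKM in WENRC. Rarg had 0.611 and 0.311 RPKM in ENRI, against 0.516 and 0.517 RPKM in WENRC, with the ENRI libraries on either side of WENRC. Rarb was weakly transcribed at its longest transcript, with 0.0490 and 0.0742 RPKM in ENRI, against 0.0671 and 0.115 RPKM in WENRC, and an internal start of it 506.9 kb downstream was marked by H3K27me3 in both WENRC lists and in neither ENRI list. Rxrg, silent and marked, had 0.000836 and 0.00460 RPKM in ENRI, against 0.00188 and 0.00786 RPKM in WENRC.

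Of the steroid receptors, Nr3c1 had 2.27 and 2.58 RPKM in ENRI, against 1.64 and 1.46 RPKM in WENRC (limma log2 change 0.51 ± 0.14, adjusted p = 0.0840). Nr3c2 had 0.697 and 1.17 RPKM in ENRI, against 0.417 and 0.318 RPKM in WENRC (log2 change 0.71 ± 0.21, adjusted p = 0.0893), and the authors' deposited table gave 1.56 with an FDR of 0.0148. For both receptors each ENRI library exceeded each WENRC library. Esr2, marked in all 4 lists, had 0.0332 and 0.0345 RPKM in ENRI, against 0.0381 and 0.0761 RPKM in WENRC. Pgr, also marked, had 0.0185 and 0.0663 RPKM in ENRI, against 0.0141 and 0.0252 RPKM in WENRC.

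The thyroid hormone receptors were both highest in ENRI batch 2. Thra had 3.20 and 5.88 RPKM in ENRI, against 3.24 and 2.90 RPKM in WENRC, so the media overlapped. Thrb was weakly transcribed by the rule used, with 0.455 and 1.17 RPKM in ENRI, against 0.311 and 0.290 RPKM in WENRC, and was not tested by limma. The authors' deposited table gave Thrb a log2 change of 1.52 with an FDR of 0.0280. Over both libraries it had 11961 reads in ENRI and 4046 in WENRC, and relative to depth the ENRI reads were 2.29 times those of WENRC (exact 95% interval 2.21 to 2.37, which covers counting error only).

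The REV-ERB genes, repressors within the circadian clock, gave the highest level of the family. Nr1d1 (REV-ERB alpha) had 11.2 and 18.3 RPKM in ENRI, against 8.04 and 8.25 RPKM in WENRC, a log2 change of 0.78 ± 0.32 (limma, adjusted p = 0.149). Its downstream neighbour Thra is transcribed towards it from the opposite strand and, in this table, ends 2.82 kb away. Nr1d2 (REV-ERB beta) had 1.67 and 2.26 RPKM in ENRI, against 1.14 and 1.43 RPKM in WENRC (log2 change 0.46 ± 0.19). Both genes were higher in each ENRI library than in each WENRC library. The ROR genes, which activate the elements that REV-ERB proteins repress, were silent and marked. Rora had 0.0072 and 0.0245 RPKM in ENRI, against 0.00727 and 0.0278 RPKM in WENRC, and Rorb had 0.00913 and 0.0495 RPKM in ENRI, against 0.0114 and 0.0180 RPKM in WENRC. The body of Rora, a gene of 734 kb, also held 50 narrow regions in ENRI, against 21 in WENRC, where the narrow list of ENRI had 55544 regions in all and that of WENRC 33499.

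The estrogen-related receptors, orphans that regulate mitochondrial genes, covered the range from high to silent. Esrra came next after Nr1d1 in level, with 8.06 and 10.6 RPKM in ENRI, against 7.81 and 5.71 RPKM in WENRC (log2 change 0.44 ± 0.28, adjusted p = 0.288 in limma). It overlaps Trmt112, which had 18.2 to 36.0 RPKM, on the opposite strand. Esrrg had 0.00720 and 0.0389 RPKM in ENRI, against 0.0761 and 0.132 RPKM in WENRC, with each ENRI library below each WENRC library. It was too low for the limma test, and the authors' deposited table gave a log2 change of −2.33 with an FDR of 0.000281. The start of its longest transcript was marked in all 4 lists, with broad regions of 2.44 kb in ENRI and 2.78 kb in WENRC. The transcript from its other annotated start, unmarked in any list, had the higher mean level, 0.121 against 0.0635 RPKM. Esrrg overlaps 9330162B11Rik on the opposite strand, which had 0.0427 and 0 RPKM in ENRI, against 0.176 and 0.134 RPKM in WENRC. Esrrb had 0.00920 and 0.0229 RPKM in ENRI, against 0.00506 and 0.0168 RPKM in WENRC.

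Among the NR2 orphans the largest differences, those of Nr2e3 and Nr2f2, were lower in ENRI without passing the test. Nr2e3, known as a photoreceptor gene, had 0.127 and 0.407 RPKM in ENRI, against 1.23 and 1.11 RPKM in WENRC, a log2 change of −1.15 ± 0.22 (limma, adjusted p = 0.0579), and the authors' deposited table gave −2.10 with an FDR of 0.0158. Nr2f2 had 0.698 and 0.548 RPKM in ENRI, against 1.35 and 1.28 RPKM in WENRC, a log2 change of −0.69 ± 0.13 (adjusted p = 0.0564). The media did not overlap for either gene. The broad H3K27me3 region over Nr2f2 was called in WENRC, the medium with its higher transcription, and not in ENRI. Nr2f6, a repressor in lymphocytes, had 4.80 and 4.59 RPKM in ENRI, against 4.01 and 3.96 RPKM in WENRC. Nr2c1 had 0.761 and 0.706 RPKM in ENRI, against 0.689 and 0.762 RPKM in WENRC, and Nr2c2 had 1.55 and 1.56 RPKM in ENRI, against 1.76 and 1.68 RPKM in WENRC. These testis receptors had log2 changes of 0.01 and −0.11. Nr2c2 overlaps Mrps25 on the opposite strand, which had 2.32 and 2.64 RPKM in ENRI, against 3.63 and 3.13 RPKM in WENRC. Nr2e1 had 0.00317 and 0.00879 RPKM in ENRI, against 0.00537 and 0.010 RPKM in WENRC, and Nr2f1 had 0.0068 and 0.0063 RPKM in ENRI, against 0.00385 and 0.0216 RPKM in WENRC.

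The NR4A genes are induced within minutes by many stimuli, and Nr4a1 and Nr4a2 were higher in batch 2 in both media. Nr4a1 had 0.860 and 3.07 RPKM in ENRI batches 1 and 2, against 1.32 and 3.47 RPKM in WENRC. Nr4a2 had 2.01 and 3.48 RPKM in ENRI, against 2.63 and 3.14 RPKM in WENRC. For both genes the media overlapped. Limma's SE for Nr4a1, 0.62 on the log2 scale, was the largest of the 27 members. Nr4a3, silent and marked, had 0.00321 and 0.00986 RPKM in ENRI, against 0.0109 and 0.0270 RPKM in WENRC. Each ENRI library was below each WENRC library, but on only 3 and 5 reads in ENRI, against 9 and 8 in WENRC. Nr5a2 (LRH-1), which acts in intestinal crypts, had 0.534 and 1.00 RPKM in ENRI, against 0.591 and 0.439 RPKM in WENRC, and Nr6a1, a germ cell factor, had 1.18 and 0.990 RPKM in ENRI, against 1.24 and 1.23 RPKM in WENRC. Nr5a1 had 0.0173 and 0.0608 RPKM in ENRI, against 0.0389 and 0.0198 RPKM in WENRC.

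Nr0b2 (SHP), which lacks a DNA-binding domain and represses other receptors in response to bile acids, was weakly transcribed. It had 0.371 and 0.745 RPKM in ENRI, against 0.160 and 0.275 RPKM in WENRC, from 71 reads over the ENRI libraries and 21 over the WENRC libraries. Each ENRI library was above each WENRC library, and the authors' deposited table gave a log2 change of 1.55 with an FDR of 0.162.

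Genes that these receptors are known to regulate, from lists chosen with earlier results of these data known, were set beside them. In limma 0 genes of any list passed. Of all tested genes, 34.3% had a log2 change above 0 and 65.7% below. Of 17 tested PPAR targets 15 were higher in ENRI and 2 lower, with a median log2 change of 1.16, and the authors' deposited table called 11 higher and 0 lower at an FDR under 0.05, against 8.16% and 4.57% of all tested genes. Fabp1, a fatty acid carrier and also a marker of enterocytes, had 19.6 and 48.6 RPKM in ENRI, against 4.47 and 1.62 RPKM in WENRC. Of 11 tested PXR and CAR targets 10 were higher and 1 lower, with a median of 2.33, and the authors' deposited table called 9 higher and 0 lower, against the same 8.16% and 4.57%. Cyp3a11, a drug-metabolising enzyme, had 7.05 and 22.0 RPKM in ENRI, against 1.02 and 0.634 RPKM in WENRC. Of 8 LXR targets 5 were tested. All 5 were higher, with a median of 0.82, led by the sterol transporters Abcg5 (log2 change 2.15 ± 0.61) and Abcg8 (2.00 ± 0.52). Abca1 and Abcg1 were silent, below 0.1 RPKM in every library, and Mylip was also too low for the limma test. Of 5 FXR targets, Fabp6 and Abcb11 were too low for the test. Of the 3 tested, the bile acid transporter genes Slc51b and Slc51a had 1.86 ± 0.41 and 1.55 ± 0.37. Fgf15, the intestinal hormone that FXR induces, had −0.30 ± 0.54.

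Other lists lay nearer to 0. The 12 tested clock genes had a median log2 change of 0.14, with 8 higher and 4 lower, among them Dbp at 0.89 ± 0.30 and Npas2 at −0.68 ± 0.16. The 10 ERR targets, mostly genes of mitochondrial respiration, had a median of 0.20, with 7 higher and 3 lower. Of 4 tested retinoic acid targets, Lrat was at 0.95 ± 0.20 and Tgm2 at −1.05 ± 0.14. The 6 tested glucocorticoid targets had a median of 0.48, with Errfi1 at 1.23 ± 0.33 and Per1 at 0.79 ± 0.17. The 23 tested coregulators had a median of −0.17, close to that of all tested genes, with 7 higher and 16 lower. Among them Pprc1, a coactivator of mitochondrial genes, was at −1.31 ± 0.20, Prmt1 at −1.31 ± 0.27 and the corepressor Nrip1 at 0.88 ± 0.22. Of the receptor genes outside the list, Hnf4g had 3.10 and 3.90 RPKM in ENRI, against 1.28 and 0.995 RPKM in WENRC, Vdr, the vitamin D receptor, had 4.95 and 13.4 RPKM in ENRI, against 3.66 and 3.57 RPKM in WENRC, and Hnf4a had 8.13 and 9.18 RPKM in ENRI, against 10.1 and 9.77 RPKM in WENRC.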

How the data were processed

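Nascent transcription was taken from the authors' deposited gene table, made per the file headers with HOMER on RefSeq transcripts of build mm9, with reads counted over gene bodies. The deposited signal is a scaled read number per transcript, 20.0M per column. In each library the low values all sat on whole multiples of a single step (100%, within 0.1 of a whole number), and dividing by that step gave whole reads. RPKM was computed from these over the length of the longest transcript of each of 24016 symbols. The table's other 4 per-sample columns, RPKM made by the authors, were not used. Log2 fold changes, p-values and FDR in the authors' deposited table came, per the file headers, from edgeR with batch as a term, positive where ENRI was higher. The submitters' processing notes name FastQC, Bowtie, Bowtie2, HOMER 4.3 and edgeR. The authors' peak lists, called per the file headers with HOMER in each library against input of its medium, at 29.8M tags in ENRI and 31.4M in WENRC, give each region a fold over input (a ratio) and a score, the tag count of its best window. Neither the strand used in counting nor whether coordinates begin at 0 or 1 is stated. Input DNA and H3 samples were not used here beyond those calls.

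Genes reaching 0.5 RPKM in 2 or more libraries were analysed by limma 3.58.1 (R 4.3.3, trend) on log2(RPKM + 0.5), ENRI against WENRC, without a block, after a run on simulated data. EdgeR 4.0.16 and DESeq2 1.42.0 on recovered reads, other scalings, pseudocounts and filters, the replicate block and leaving out each library were alternatives. Sample titles number mice 1 and 2 in each medium, while columns carry only batches, which served as the replicate block. Deviations of the libraries of batch 1 correlated at 0.0126 across genes between media. Promoters were 2 kb either side of the start, with 1 bp of overlap. Intervals on reads cover counting error only, since PCR reads are not independent molecules. Members, gene lists and tests were chosen with earlier results of these data known. Values are printed for every transcribed or marked member, and in each other list for up to 4 genes with the largest log2 change, plus genes of the family outside the list. Promoter sequences are from RefSeq, GRCm38.p6, matched by symbol and by transcript span within 2 kb. Other tools were Python 3.11.15, pandas 2.3.3, numpy 2.4.6 and scipy 1.17.1.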

Additional observations from a re-analysis of the deposited data

How the results depend on the processing

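With limma on log2(RPKM + 0.5), 17 genes and 0 receptor genes were called. The count of genes was 0 with DESeq2 size factor scaling, TMM scaling, the replicate block or no filter on low values, 1 with a pseudocount of 0.1, 929 after quantile normalization, 1489 with a filter of 10 reads in 2 libraries, 977 with edgeR without a block, 901 with edgeR and the replicate block and 2736 with DESeq2. Leaving out 1 library gave 0 to 5795 genes and 0 to 17 receptor genes. Receptor genes called were 2 after quantile normalization, with the read filter and with edgeR with or without the replicate block, and 13 with DESeq2. Limma with the replicate block called 0. The causes were not tested.

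Of 27 transcribed members 19 kept their sign under all 17 alternatives. The others turned as follows, in log2 change, with the cause not tested. With size factor scaling, Nr2c2 had 0.11, Nr4a2 0.16, Nr6a1 0.071, Rara 0.061 and Rarg 0.037. With TMM scaling, in the same order, these were 0.097, 0.14, 0.059, 0.047 and 0.030. With edgeR they were 0.10, 0.19, 0.059, 0.037 and 0.078 without a block and 0.099, 0.13, 0.056, 0.035 and 0.023 with the replicate block. DESeq2 gave 0.13, 0.22, 0.088, 0.069 and 0.10, with Nr4a1 at 0.022. Median centring gave Nr2c2 0.035, Nr4a2 0.054, Nr6a1 0.016 and Rarg 0.049, and quantile normalization gave Nr2c2 0.0070, Nr6a1 0.053 and Rarg 0.26. With 1 library left out, Nr2c1 lay between −0.033 and 0.053, Nr4a1 between −0.99 and 0.41, Nr4a2 between −0.43 and 0.24, Pparg between −0.72 and 0.033 and Rarg between −0.33 and 0.13.

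Transcribed members numbered 25 to 26 with 1 library left out, 29 at 0.25 RPKM and 22 at 1 RPKM. Members marked in both broad lists were 11, 8 among regions at or above the median score, 12 at any annotated start (an alternative added after seeing the data) and 13 in the narrow lists. Of them 1 was transcribed, against 3 in the narrow lists (Nr2f2, Nr4a2 and Rarg). With the transcript of highest level per symbol in place of the longest, 10 members were marked in both broad lists. Rora and Esrrg then dropped out and Esrrb came in.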

Other observations

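Starts within 1 receptor gene differed in H3K27me3. Rora, which encodes a ROR protein, had another annotated start 636.1 kb downstream of the first, marked in the broad ENRI list and both narrow lists but not in the broad WENRC list. Rorb had one 110.1 kb downstream with no region in any list, and Esrrg one 388.8 kb downstream with none, although the first start of each was marked in all 4 lists. The other start of Nr2f2, 6.15 kb downstream, was marked in both WENRC lists and in neither ENRI list. With 1 ChIP library per medium none of these differences has a replicate check.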
